A study of Homo sapiens with 6 samples.

Results

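The genes described here encode the EGF receptor family and its ligands, together with a protein that releases the ligands and a protein that inhibits the receptor. They were taken by official symbol from a table of 19240 genes listed by Entrez number, and all 10 were found: the receptors EGFR, ERBB2 and ERBB3, the ligands AREG, EREG, HBEGF, TGFA and BTC, the inhibitor ERRFI1 and the protease ADAM17. The cells were A549, an established human lung carcinoma line. They were cultured for 48 h without glucose (3 libraries) or with 25 mM glucose (3 libraries), no other agent is named. The title of the series names glucose-independent tumor cell growth as its subject. RNA was counted from transcript 3' ends. All libraries came from 1 cell line. The labels do not state whether replicate libraries came from separate cultures, so p-values reflect the spread among libraries, which may be purely technical.

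Receptors of this family sit in the cell membrane and pair up when a ligand binds outside the cell, which switches on a tyrosine kinase inside it. ERBB2 binds no known ligand and ERBB3 has a very weak kinase, so each signals in pairs with other members. The ligands are made as membrane-bound precursors that a protease, mainly ADAM17 or ADAM10, cuts free. The signal runs through RAS and ERK and through PI3K and AKT, and it induces its own inhibitors, ERRFI1 (MIG6) among them. In lung cancer the family is known for EGFR mutations and for the drugs that target them.

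The libraries without glucose held 11086416 to 14060313 gene counts and those with glucose 6701004 to 14259943. Levels are given as CPM, counts scaled to the library's total over the genes tested times its edgeR TMM factor (0.9517 to 1.057). They are relative to the RNA counted, so they show neither the amount of RNA per cell nor the number of cells. A rise of a gene cannot be told apart from a fall of other RNA. Replicate 1 with glucose was the shallowest library and stood apart from the other libraries with glucose on the second principal component, which held 17.8% of the variance (score −34.6, against 20.8 and 18.6). Of the epithelial markers fixed for this comparison, the keratin genes KRT7, KRT8 and KRT18 were abundant (722 CPM or more in every library). KRT19 was at 21.3 to 44.1 CPM, CDH1 at 4.57 to 8.16 CPM and EPCAM at 2.54 to 5.63 CPM. KRT8 and KRT18 fell without glucose (log2 fold changes −1.18 ± 0.20 and −0.90 ± 0.18, SE). The other 4 epithelial markers did not pass, KRT7 (0.23) and KRT19 (−0.49) among them. Markers of other cell types were low: the summed level of the 7 fibroblast markers was 4.52 to 5.97 CPM without glucose and 13 to 15 CPM with it. That of the 6 leukocyte markers, nearly all of it CD68, was 25 to 39.3 CPM without glucose and 16.1 to 18.2 CPM with it. The 4 endothelial markers summed to less than 1 CPM in every library. COL1A2, DCN, CD3E, VWF and KDR were at 0 in all libraries. Of these markers, COL1A1 and CD14 fell and CD68 rose. CD14 was near the floor, with 1, 0 and 2 counts without glucose and 8, 11 and 17 counts with glucose. The part of these markers in the results was not tested.

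Without glucose, EGFR, the ligand genes TGFA and BTC and the sheddase gene ADAM17 rose, and ERRFI1, the inhibitor gene, fell. EGFR had the largest change of the 10, 4.84-fold, and the other genes that rose were 2.96-fold to 3.10-fold higher. ERRFI1 was at 0.402 of its level with glucose. ERBB2, ERBB3, AREG, EREG and HBEGF did not pass. All 10 genes passed the filter on low counts. By edgeR's quasi-likelihood test with Benjamini-Hochberg adjustment over the 11886 genes tested, 4 members were higher and 1 lower at an adjusted p under 0.05. Over all genes tested, 22.3% passed: 11.6% were higher and 10.7% lower. The CPM of the groups did not overlap for 5 members, the same 5 that passed, against 40.4% of all genes tested (21.0% higher and 19.4% lower). The median log2 fold change of the members was 0.32, against 0.02 for all genes tested.

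**Figure D1:**
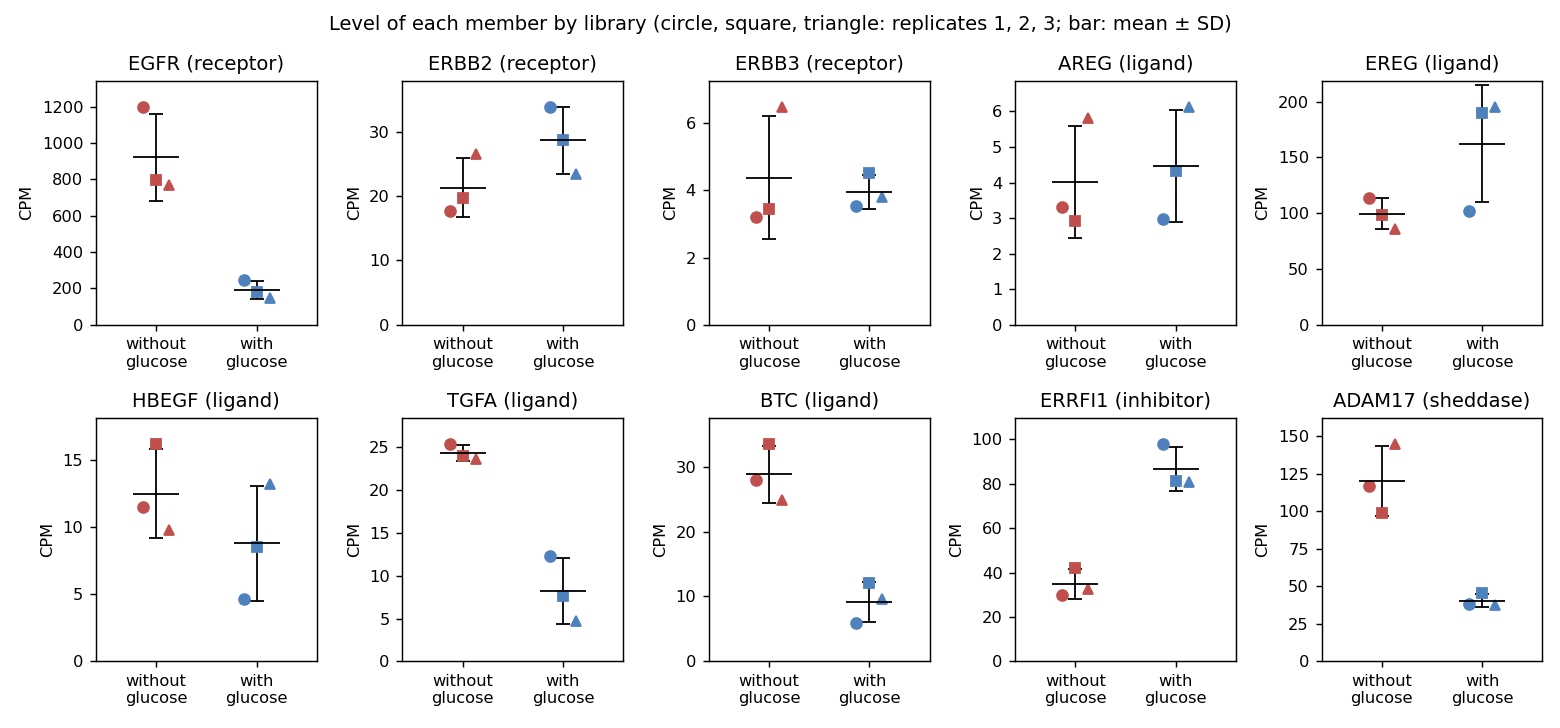
Level of each of the 10 genes (CPM, linear axis from 0) in the libraries without glucose (left, red) and with glucose (right, blue); symbols are replicates and bars are the mean ± SD of 3 libraries. The groups are apart for EGFR, TGFA, BTC, ERRFI1 and ADAM17 and overlap for the other members.

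EGFR (Entrez 1956) encodes the receptor that binds all 5 ligands counted here. Its level was 1197, 797 and 768 CPM in the libraries without glucose, against 245, 180 and 145 CPM in those with glucose. Every library without glucose lay above every library with glucose, and the gap between the groups was wider than the range within either group. The mean was 920 ± 240 CPM without glucose and 190 ± 50.5 CPM with glucose (SD, n = 3 each). This was a log2 fold change of 2.28 ± 0.26 (SE; edgeR adjusted p = 1.61e-04), and EGFR ranked 131 from the highest log2 fold change among the 11886 genes tested. In counts, EGFR had 33451 reads over the libraries without glucose and 5677 over those with it.

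ERBB2 (Entrez 2064), the receptor with no known ligand, had 17.7, 19.7 and 26.5 CPM without glucose, against 33.8, 28.7 and 23.4 CPM with glucose. The groups overlapped. Its log2 fold change was −0.42 ± 0.23, with a 95% interval (not adjusted for the number of genes) of −0.91 to 0.08, and it did not pass (edgeR adjusted p = 0.207). ERBB3 (Entrez 2065), the receptor with a weak kinase, was low in both groups, with 3.22, 3.44 and 6.48 CPM without glucose and 3.53, 4.51 and 3.80 CPM with glucose. Its interval ran from −0.63 to 0.94 on the log2 scale (edgeR adjusted p = 0.792), wide enough to hold a fall or a rise. The sign of its log2 fold change, 0.15, turned to −0.25 when glucose-free replicate 3 was left out. The remaining receptor of the family, ERBB4, had at most 1 count in any library.

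The receptors were also compared by ratios of counts within a library, which do not depend on how libraries are scaled. There were 67.5, 40.5 and 28.9 EGFR counts per ERBB2 count without glucose, against 7.25, 6.28 and 6.23 with glucose. EGFR made up 98.3%, 97.2% and 95.9% of the counts of the receptor genes without glucose, against 86.8%, 84.4% and 84.2% with glucose. The groups did not overlap in either measure. Each had an exact permutation p of 0.1 (two-sided), the smallest that 3 libraries against 3 allow, and 0.125 adjusted over the 10 ratios, shares and sums computed from these genes. A read marks 1 transcript end in this assay, so counts were not divided by transcript length. How well each gene's 3' end was captured was not tested.

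The 250 bases before the annotated start of the 5 genes that passed are printed here, because these genes moved together or against each other. They are the first window listed for each gene in RefSeq, on build GRCh38.p14; the reads were aligned to hg19, and no coordinates of reads were used. The windows are chr7:55018767-55019016 on the plus strand for EGFR and, on the minus strand, chr2:70553827-70554076 for TGFA, chr4:74794524-74794773 for BTC, chr2:9555831-9556080 for ADAM17 and chr1:8026310-8026559 for ERRFI1. Capitals mark the motifs searched, on either strand: the GC box GGGCGG bound by SP1, the CCAAT box CCAAT, the TATA box TATAAA, the E-box CACGTG, the AP-1 site TGANTCA, the cAMP response element TGACGTCA, the ATF4 composite element TGATGNAA, and the endoplasmic reticulum stress response elements I and II. The CCAAT box is the first part of stress element I, and its complement lies within element II.
EGFR: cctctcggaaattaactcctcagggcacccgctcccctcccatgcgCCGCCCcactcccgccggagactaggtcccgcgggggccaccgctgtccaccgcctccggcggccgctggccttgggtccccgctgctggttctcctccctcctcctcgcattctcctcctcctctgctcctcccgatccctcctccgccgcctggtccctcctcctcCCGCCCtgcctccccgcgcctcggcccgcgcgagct
TGFA: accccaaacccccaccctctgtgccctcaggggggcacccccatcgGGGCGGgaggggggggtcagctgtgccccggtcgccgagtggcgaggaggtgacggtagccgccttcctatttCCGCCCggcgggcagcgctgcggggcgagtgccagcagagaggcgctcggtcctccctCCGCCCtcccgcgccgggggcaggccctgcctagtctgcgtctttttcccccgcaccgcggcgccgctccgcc
BTC: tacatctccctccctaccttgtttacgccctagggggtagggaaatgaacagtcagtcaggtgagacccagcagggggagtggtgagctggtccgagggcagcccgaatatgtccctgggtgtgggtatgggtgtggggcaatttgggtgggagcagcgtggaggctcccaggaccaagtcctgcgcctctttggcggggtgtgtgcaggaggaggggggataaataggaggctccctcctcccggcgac
ADAM17: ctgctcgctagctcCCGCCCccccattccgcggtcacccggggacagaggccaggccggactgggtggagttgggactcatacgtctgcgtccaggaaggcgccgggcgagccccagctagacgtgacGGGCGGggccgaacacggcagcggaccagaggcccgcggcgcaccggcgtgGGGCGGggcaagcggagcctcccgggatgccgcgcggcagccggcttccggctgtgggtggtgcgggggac
ERRFI1: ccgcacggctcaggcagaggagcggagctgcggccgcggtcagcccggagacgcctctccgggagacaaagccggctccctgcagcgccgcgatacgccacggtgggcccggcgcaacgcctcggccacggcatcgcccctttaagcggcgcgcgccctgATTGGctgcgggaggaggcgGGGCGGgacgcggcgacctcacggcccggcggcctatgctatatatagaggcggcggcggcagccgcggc
The GC box stood at 2 places before EGFR, at 3 before TGFA, at 3 before ADAM17 and at 1 before ERRFI1, and it occurred in 42.6% of the 35114 windows of the same length in the RefSeq table. These windows were rich in G and C, at 73.6% for EGFR, 75.6% for TGFA, 75.6% for ADAM17 and 75.2% for ERRFI1. The BTC window, at 62%, held none of the motifs searched. ERRFI1 also had a CCAAT box, as did 32% of all windows. None of the 5 windows held the letters TATAAA searched as the TATA box, which occurred in 10.7% of all windows. Variants of these letters, such as the TATATATA seen in the ERRFI1 window, were not searched. Neither stress element was found in the 5 windows. Elements I and II occurred in only 0.074% and 0.0513% of all windows, so their absence here carries little information. Among the members that did not pass, HBEGF had the GC box at 5 places, more than any gene that passed, and AREG at 1. The AREG and EREG windows each held a TATA box, starting 29 and 32 bases before the gene's start, and the AREG window a cAMP response element. The ERBB2 window held an AP-1 site and 1 CCAAT box, and the EREG window held 2 CCAAT boxes. The AP-1 site occurred in 6.57% of all windows and the cAMP response element in 1.65%. The table had no window for ERBB3. These matches describe letters only.

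TGFA (Entrez 7039) encodes TGF-alpha, a ligand of EGFR. It had 25.4, 24 and 23.6 CPM in the libraries without glucose, against 12.3, 7.68 and 4.71 CPM with glucose. The libraries without glucose lay close together, with a coefficient of variation of 4%, while those with glucose spread over a 2.61-fold range. All 3 without glucose were higher than all 3 with it. The log2 fold change was 1.59 ± 0.30 (edgeR adjusted p = 0.00310). BTC (Entrez 685) encodes betacellulin, a ligand of EGFR and ERBB4. Its level was 28, 33.5 and 24.9 CPM without glucose, against 5.94, 12.1 and 9.57 CPM with glucose, again with no overlap. The log2 fold change was 1.63 ± 0.27 (edgeR adjusted p = 0.00123), close to that of TGFA.

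EREG (Entrez 2069) encodes epiregulin and had the most counts of the 5 ligand genes in every library. It had 114, 98.4 and 85.9 CPM without glucose, against 102, 190 and 195 CPM with glucose. The groups overlapped through 1 library, replicate 1 with glucose. The log2 fold change was −0.71 ± 0.26 with an unadjusted p of 0.0163, and EREG did not pass (edgeR adjusted p = 0.0639; 95% interval −1.27 to −0.16, not adjusted). Without replicate 1 with glucose the log2 fold change was −0.96 and the adjusted p 0.00785. It also passed by DESeq2 (0.0316), with library totals as scaling (0.0372) and with no filter on low counts (0.0454). It did not pass with DESeq2 size factors in edgeR (0.0591), a filter at a mean of 20 counts (0.0633) or a replicate block (0.143). Nor did it pass on leaving out any other library (edgeR adjusted p = 0.0826 to 0.213).

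HBEGF (Entrez 1839) encodes a heparin-binding ligand of EGFR and ERBB4. It had 11.5, 16.2 and 9.80 CPM without glucose, against 4.66, 8.55 and 13.2 CPM with glucose. With glucose the highest library was 2.82 times the lowest, the widest spread of any member. Its log2 fold change was 0.48 ± 0.34 (edgeR adjusted p = 0.334), but 0.19 without replicate 1 with glucose and 0.90 without replicate 3 with glucose. AREG (Entrez 374), which encodes amphiregulin, had 3.32, 2.91 and 5.82 CPM without glucose, against 2.97, 4.32 and 6.12 CPM with glucose. Its interval of −1.01 to 0.66 leaves the direction undetermined (log2 fold change −0.17, edgeR adjusted p = 0.776), and the sign turned without replicate 3 with glucose (0.13). The lowest AREG count, 21 in replicate 1 with glucose, has an exact 95% Poisson interval of 13 to 32.1, for counting error only. The hg19 assembly is known to carry a further copy of AREG, named AREGB, which RefSeq now lists as a synonym. The table has no row for it, and reads that fit both copies equally well would be missing from the AREG count, so the level of AREG is uncertain.

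The 5 ligand genes were also described by their summed level and by their shares of the ligand counts; with 3 libraries against 3, the exact test of these measures cannot go below 0.1 and so could not pass for any of them. The summed level of the 5 ligand genes was 182, 175 and 150 CPM without glucose, against 128, 223 and 229 CPM with glucose (exact permutation p = 0.6, 0.667 adjusted over the 10 measures). EREG held 62.5%, 56.2% and 57.3% of the ligand counts without glucose, against 79.7%, 85.3% and 85.3% with glucose. BTC held 15.4%, 19.2% and 16.6% without glucose, against 4.65%, 5.43% and 4.18% with glucose. TGFA held 14%, 13.7% and 15.7%, against 9.63%, 3.45% and 2.06%. HBEGF held 6.32%, 9.27% and 6.53% without glucose, against 3.65%, 3.84% and 5.75% with glucose. For these 4 shares the groups did not overlap, with exact permutation p-values of 0.1 and adjusted values of 0.125. The share of AREG, 1.66% to 3.88% without glucose and 1.94% to 2.68% with glucose, overlapped (exact permutation p = 1). A fall in the share of EREG follows in part from the rise of the others, since shares sum to the whole.

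**Figure D2:**
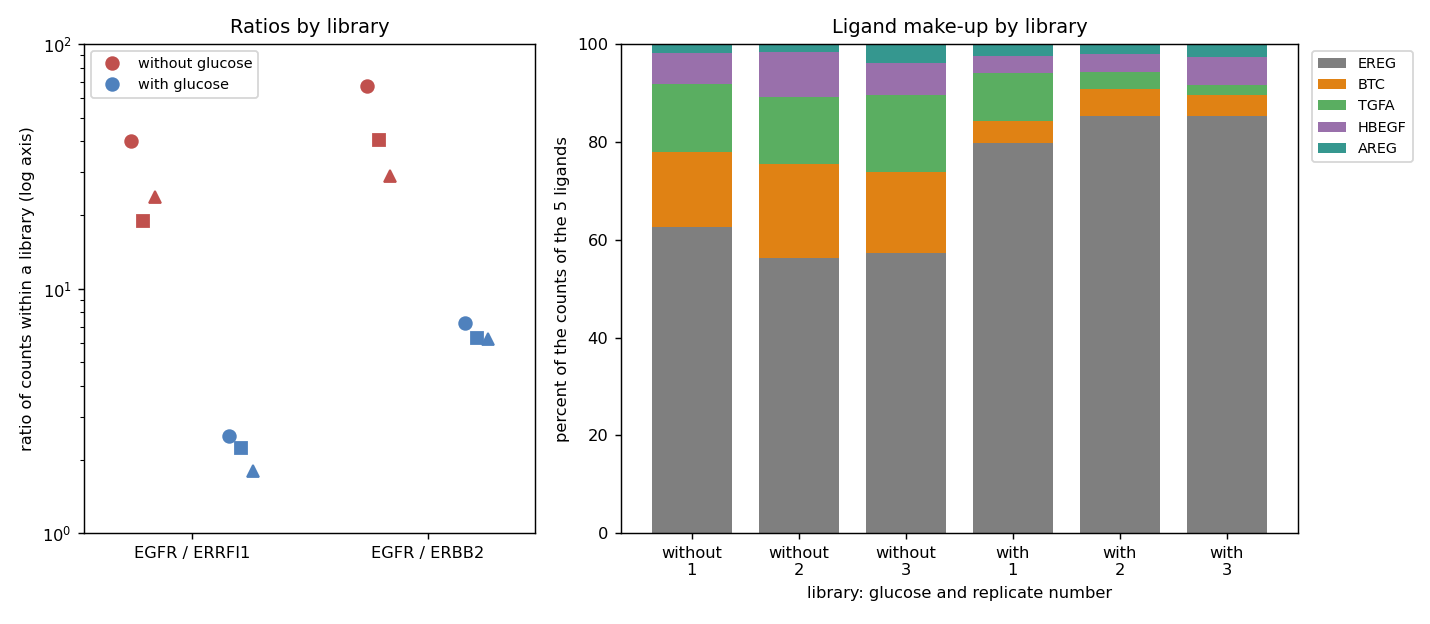
Left, counts of EGFR per count of ERRFI1 and of ERBB2 in each library (log axis), without glucose in red and with glucose in blue; symbols are replicates. Right, the percent of the counts of the 5 ligand genes held by each ligand, 1 bar per library: EREG held 56.2% to 62.5% in libraries without glucose and 79.7% to 85.3% in those with glucose.

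EREG, AREG and BTC are neighbours on chromosome 4, in the order EPGN, EREG, AREG, BTC with no other protein-coding gene between them in RefSeq. BTC was the member of this cluster that passed. EPGN, the gene of epigen, had 2 counts over the libraries without glucose and 2 over those with glucose. Of the other ligand genes of the family, EGF had 1 count in 1 library and NRG3 none in any. NRG1, which encodes neuregulin, a ligand of ERBB3 and ERBB4, had 77.8, 97.4 and 90.9 CPM without glucose, against 95.5, 132 and 105 CPM with glucose. It did not pass (log2 fold change −0.32 ± 0.21, edgeR adjusted p = 0.281). Of the 7 further receptor and ligand genes, 3 could be tested and 0 passed by edgeR; 0 had an unadjusted p under 0.05.

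ADAM17 (Entrez 6868) encodes the protease that frees TGF-alpha, amphiregulin, epiregulin and HB-EGF from the membrane. It had 117, 98.9 and 145 CPM without glucose, against 38.4, 45.4 and 37.8 CPM with glucose. The lowest library without glucose lay above the highest with glucose, and the groups were widely separated. The log2 fold change was 1.57 ± 0.22 (edgeR adjusted p = 4.50e-04). In RefSeq the gene overlaps IAH1, which lies on the opposite strand, and the strand setting of the counting is not given. The log2 fold change of IAH1 itself was −0.04 ± 0.23, which did not pass (edgeR adjusted p = 0.919). ERBB2 likewise overlaps MIEN1, on the opposite strand, which had a log2 fold change of 0.18 ± 0.24 (edgeR adjusted p = 0.609). EGFR and its antisense RNA gene also overlap. No separate count was analysed for the antisense gene, so its reads could not be told apart from those of EGFR. The same holds for TGFA, which overlaps the RNA genes TGFA-IT1, LOC107985895 and LOC124907824, and for EREG, which overlaps LOC105377276. ADAM17 and ERBB2 also overlap the small RNA genes LOC124906162 and MIR4728, respectively, which have no separate count either.

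Of 11 tested sheddase, iRhom and related genes, 1 rose and 1 fell, beside 22.3% called over all genes tested, and 9 did not pass. Their median log2 fold change was 0.46. ADAM9, a related protease, rose to 190, 216 and 218 CPM without glucose, against 112, 119 and 136 CPM with glucose (log2 fold change 0.77 ± 0.19, edgeR adjusted p = 0.0135). It missed the threshold on leaving out glucose-free replicate 3 (0.0559) or replicate 2 with glucose (0.0599), when 0 members of the list rose. Without replicate 3 with glucose 2 rose. FRMD8, which holds the iRhom and ADAM17 complex at the cell surface, fell by 0.87 ± 0.21 on the log2 scale (edgeR adjusted p = 0.0103). ADAM10, the other main sheddase, had 122, 97.3 and 110 CPM without glucose and 52, 66.8 and 106 CPM with glucose, and did not pass. The iRhom genes RHBDF1 and RHBDF2, which carry ADAM17 to the surface, had log2 fold changes of 0.50 and 0.46 and did not pass either.

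ERRFI1 (Entrez 54206) encodes MIG6, which binds the EGFR kinase, blocks it and promotes its removal. It had 29.7, 42.2 and 32.5 CPM without glucose, against 97.9, 81 and 80.9 CPM with glucose. Every library without glucose lay below every library with glucose. The log2 fold change was −1.31 ± 0.21 (edgeR adjusted p = 0.00115). The receptor and its inhibitor thus moved in opposite directions: there were 40.3, 18.9 and 23.6 EGFR counts per ERRFI1 count without glucose, against 2.5, 2.23 and 1.8 with glucose. The mean ratio was 27.6 ± 11.2 without glucose and 2.18 ± 0.353 with glucose (SD, n = 3 each; exact permutation p = 0.1, adjusted 0.125).

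**Figure D3:**
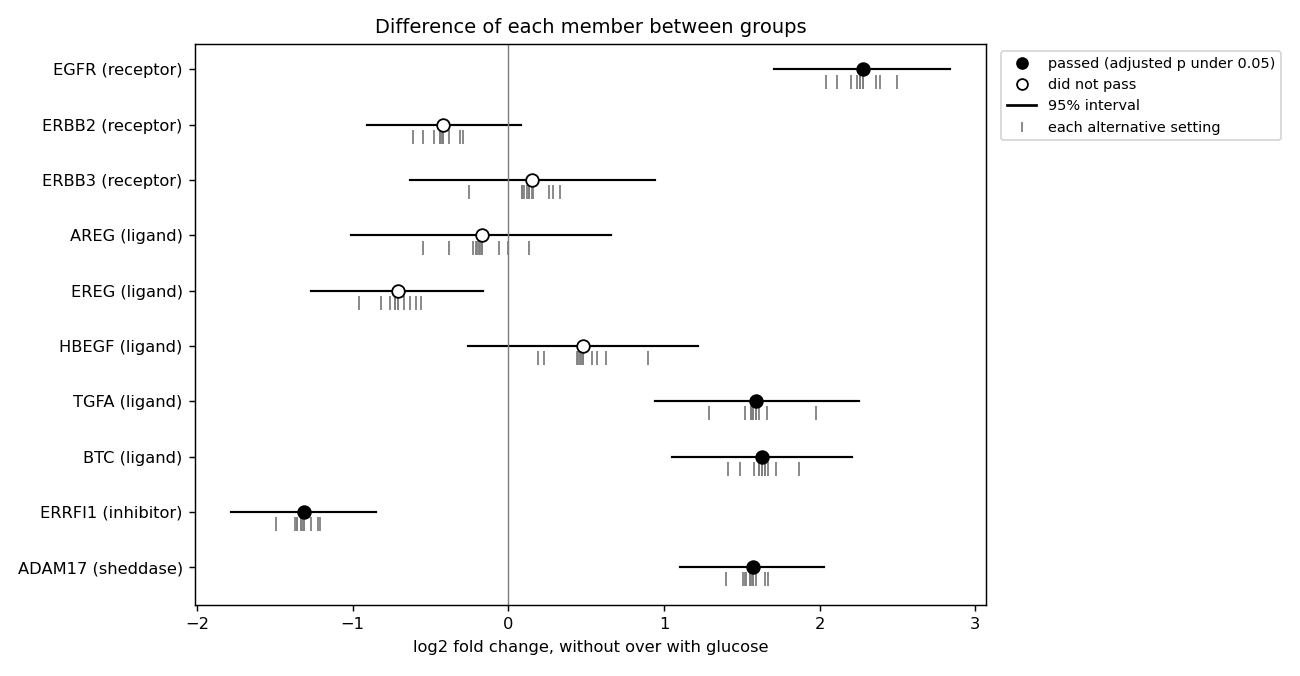
Log2 fold change of each gene, without over with glucose, from the edgeR fit: filled circles passed at an adjusted p under 0.05, open circles did not, lines are 95% intervals not adjusted for the number of genes, and grey ticks are the values under each of 12 alternative settings. EGFR, at 2.28, is farthest from 0, and the ticks of ERBB3 and AREG fall on both sides of 0.

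Genes that control receptor removal and activity rose in 5 of 26 tested cases and fell in 0. Over all genes tested, 11.6% were higher and 10.7% lower. The median log2 fold change of this list was 0.39. SH3KBP1, an adaptor that works with the ubiquitin ligase CBL when EGFR is taken into the cell, had 1254, 526 and 698 CPM without glucose, against 167, 255 and 193 CPM with glucose (log2 fold change 2.01 ± 0.31, edgeR adjusted p = 8.50e-04). The groups were well apart. GRB10, an adaptor that binds receptor tyrosine kinases, rose by 1.66 ± 0.24 and PTPRJ, a membrane phosphatase that acts on EGFR, by 0.96 ± 0.20 on the log2 scale (edgeR adjusted p = 5.73e-04 and 0.00480). NEDD4, a ubiquitin ligase, and ERBIN, an ERBB2-binding scaffold, also rose (log2 fold changes 0.66 and 0.73, edgeR adjusted p = 0.0396 and 0.0397). NEDD4 missed the threshold on leaving out each of the 6 libraries in turn (0.0577 to 0.142), with library totals as scaling (0.0538) and with a replicate block (0.0871). ERBIN missed it with a replicate block (0.0713) and on leaving out any library but glucose-free replicate 3 (0.0581 to 0.149). The number that rose was 3 with a replicate block, and also on leaving out glucose-free replicate 1 or 2, or replicate 2 or 3 with glucose. CBL, the ligase that marks EGFR for degradation, did not pass (log2 fold change 0.09).

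Below the receptor, 0 of 29 tested genes of adaptors, RAS, ERK and PI3K signaling rose and 3 fell (median log2 fold change 0.00). The shares over all genes tested were 11.6% higher and 10.7% lower. HRAS, a RAS gene, AKT1, a kinase below PI3K, and PLCG1, a phospholipase that EGFR activates, fell by 0.90 ± 0.22, 0.90 ± 0.22 and 0.96 ± 0.24 on the log2 scale (edgeR adjusted p = 0.0110, 0.0112 and 0.0126). PLCG1 missed the threshold when glucose-free replicate 3 was left out (0.0553). GRB2, the adaptor that links the receptor to RAS, did not pass (log2 fold change −0.28 ± 0.19).

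Of 15 genes that ERK signaling is known to induce, 3 rose and 0 fell, beside 22.3% called over all genes tested. Their median log2 fold change was −0.03. DUSP5, a nuclear phosphatase of ERK, had 29.9, 46.8 and 39.5 CPM without glucose, against 11.3, 7.49 and 7.18 CPM with glucose (log2 fold change 2.18 ± 0.26, edgeR adjusted p = 1.82e-04). FOSL1, an AP-1 subunit, rose by 0.90 ± 0.23 (edgeR adjusted p = 0.0135), but missed the threshold without replicate 2 (0.0642) or 3 (0.0697) with glucose, when 1 gene of the list rose. ETV5, an ETS factor, had 77, 33.4 and 20.8 CPM without glucose, against 16.1, 15.8 and 24.1 CPM with glucose. It passed (edgeR adjusted p = 0.0420), yet its groups overlapped. Its call was lost with a replicate block (0.0795) and on leaving out glucose-free replicate 1 (0.226) or any library with glucose (0.104, 0.134 and 0.0538 for replicates 1, 2 and 3). DUSP4 and DUSP6, further ERK phosphatases, and SPRY2 and SPRY4, which dampen receptor signaling, did not pass, with log2 fold changes of −0.03, −0.30, −0.27 and 0.29.

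Stress genes moved in the same libraries. Of 10 genes of the endoplasmic reticulum stress response, 9 rose and 0 fell, beside 22.3% called over all genes tested. Their median log2 fold change was 1.95. Among them, HSPA5, DNAJB9 and SDF2L1, which serve protein folding there, rose by 3.15 ± 0.24, 2.56 ± 0.24 and 2.31 ± 0.23. Of 13 tested immediate-early and heat-shock genes, 6 rose and 1 fell (median 0.74), again beside 22.3% called over all genes tested. FOS and EGR1, immediate-early factors that ERK signaling also induces, rose by 2.23 ± 0.65 and 1.99 ± 0.39 (edgeR adjusted p = 0.0274 and 0.00399). FOS was low, with 23, 45 and 48 counts without glucose and 3, 1 and 18 counts with glucose. FOS missed the threshold on leaving out glucose-free replicate 2 (0.0707) or 3 (0.0899) or replicate 1 (0.0616) or 2 (0.0740) with glucose. JUN, an AP-1 subunit, rose by 1.37 ± 0.27 and HSPA1B, a heat-shock chaperone with a near-identical copy in HSPA1A, by 1.53 ± 0.24. NR4A1, an immediate-early nuclear receptor, fell to 3.22, 3.06 and 2.21 CPM without glucose, against 14.1, 12 and 12.4 CPM with glucose. The immediate-early genes FOSB, JUNB, ATF3, IER2 and ZFP36 did not pass (log2 fold changes 1.56, 0.50, −0.12, −0.05 and 0.19). The summed level of the immediate-early and heat-shock list was 2137, 2417 and 2545 CPM without glucose, against 1372, 1335 and 1262 CPM with glucose. Their part in the changes of the EGF receptor family was not tested.

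**Figure D4:**
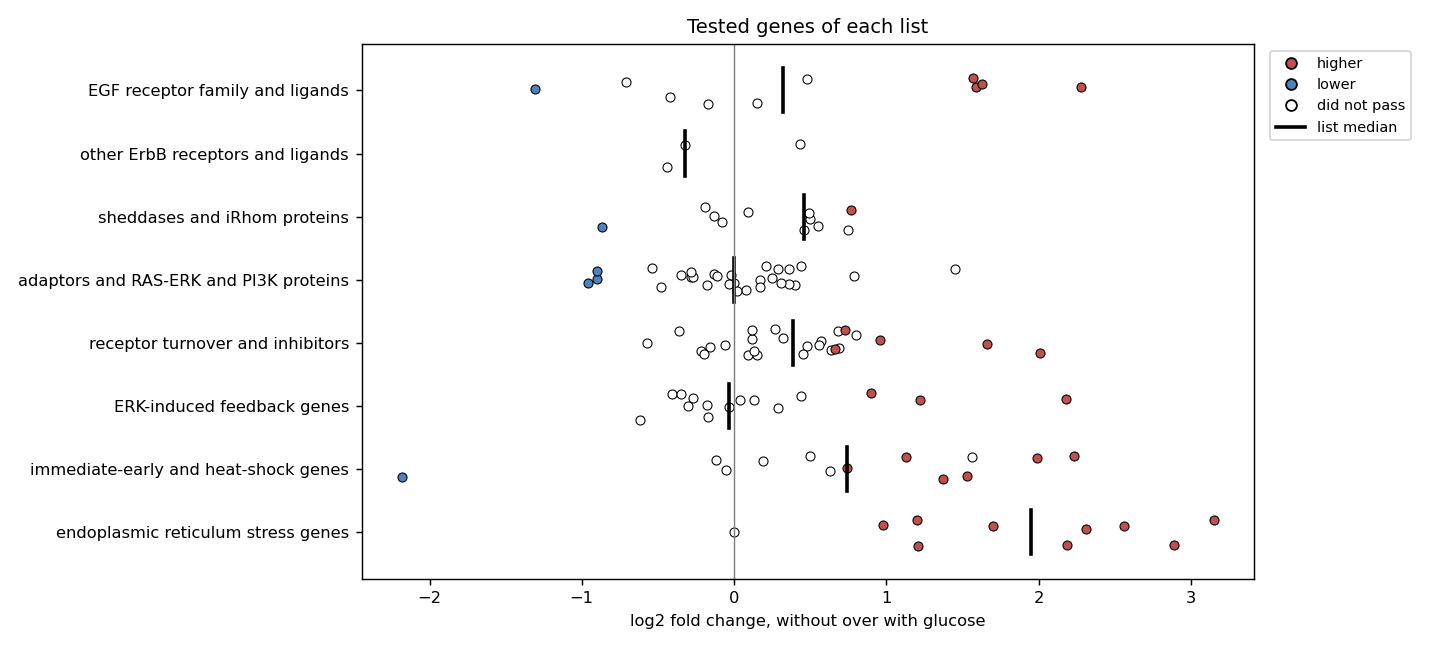
Log2 fold change, without over with glucose, of every tested gene of the EGF receptor family list and of 7 related lists; red circles were higher, blue lower and open circles did not pass, and the black line is the list median. The medians run from −0.32 for the other receptors and ligands to 1.95 for the endoplasmic reticulum stress genes.

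Over the 6 libraries, the log2 CPM of EGFR was most like that of TMEM150A (Pearson r = 0.9996), LAMB2, a laminin chain (0.9979), and RAB5A, a GTPase of early endosomes (0.9979), among the 11142 other tested genes that averaged 20 or more counts per library. The 6 points fall into groups that lie far apart and come from the same libraries, so these values are a description only. Their own log2 fold changes were 1.22 ± 0.25, 1.17 ± 0.20 and 0.57 ± 0.19.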

How the data were processed

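The authors deposited raw read counts per gene for 6 libraries, which were made, per the submitters' processing notes, with STAR and HTSeq on hg19; tool versions, the annotation and the strand setting are unstated in these sources. Per the labels' protocols, cDNA was primed with barcoded oligo-dT and pooled by the Actb signal before PCR. No molecular identifiers are mentioned, so reads copied by PCR could not be told apart. The Poisson interval of the AREG count covers counting error only and may therefore be too narrow. Intervals of fold changes come from the edgeR fit and reflect the spread among libraries. Symbols came from RefSeq (GRCh38.p14; 19178 of 19240 genes matched). The 5 HTSeq summary lines were left out: 32.8% to 36.5% of reads lay outside genes, 18.4% to 22.2% aligned to more than 1 place and 0.369% to 0.418% were ambiguous.

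Libraries were grouped by their titles and compared, without glucose against with glucose, by edgeR 4.0.16's quasi-likelihood F test (two-sided) over the whole table, with TMM scaling, the default filterByExpr (minimum count 10) and Benjamini-Hochberg adjustment; the model held no covariate. The SE of a log2 fold change is its size divided by the square root of F. Libraries of a group differed beyond sampling noise (chi-square per degree of freedom 22.1 to 57.3), so none were merged. Alternatives were DESeq2 1.42.0, other scalings, other filters, a replicate block and leaving out each library. The scripts were tested on simulated data. The members and lists were chosen with earlier results of these data known. Named genes are all members, up to 3 genes with the smallest p among those that passed in each related list, and the 3 most like EGFR, the member with the smallest p. Other genes named were chosen after their values were seen. Some genes of the lists are not reported here.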

Additional observations from a re-analysis of the deposited data

How the results depend on the processing

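Of the 10 members, 7 kept their direction and their side of the threshold under all 12 alternatives, EGFR, TGFA, BTC, ADAM17 and ERRFI1 among them (log2 fold changes 2.04 to 2.50, 1.29 to 1.98, 1.41 to 1.87, 1.40 to 1.67 and −1.49 to −1.21). The exceptions were EREG, ERBB3 and AREG. EREG passed as lower with library totals as scaling (−0.76), by DESeq2 (−0.73) and with no filter on low counts (−0.71), so that 2 members were lower in each of these; leaving out 1 library at a time gave −0.96 to −0.56 and 1 to 2 lower members. ERBB3 ran from −0.25 to 0.33 and AREG from −0.55 to 0.13 when 1 library was left out; the cause was not tested. Leaving out 1 library gave 860 to 1292 higher and 781 to 1232 lower genes over the whole table, against 1376 and 1276 with all libraries. Of the 17 genes of the related lists that were named for their small p, 13 kept direction and call throughout. ADAM9, PLCG1, FOSL1 and ETV5 did not. FOS, EGR1, NEDD4 and ERBIN were not among these 17. EGR1 kept its call under all 12 alternatives, while NEDD4 lost it in 8, ERBIN in 6 and FOS in 4. Same-numbered libraries did not deviate together (r = −0.298, −0.14 and 0.0421), and not every library correlated best with its own number. With a replicate block 984 genes were higher and 911 lower, and no call of a member changed (4 higher, 1 lower). By DESeq2 1 gene of receptor turnover and 1 ERK-induced gene were lower, against 0 by edgeR; leaving out replicate 2 of the cells without glucose also gave 1 lower turnover gene. With 3 libraries per group the two-sided exact permutation test cannot go below a p of 0.1.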
